A study of Mus musculus with 10 samples.

Results

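The plasminogen activator genes Plau, Plaur, Plat and Serpine2 were examined in cultured mouse cells by every array probe set that carries 1 of these symbols alone. Of the 4 genes, 3 had such a probe set in the annotation used here, with 5 probe sets in all among the 45101 of the array, and these genes were 3 of 18193 named genes. Plau and Plat had 2 probe sets each and Plaur had 1. No probe set was named for Serpine2, which was not analysed here.

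Plasmin is a protease that dissolves fibrin and degrades matrix proteins. It circulates as the inactive precursor plasminogen, which is cut by the serine proteases Plat, the tissue-type activator (tPA), and Plau, the urokinase-type activator (uPA). Plaur is the membrane-anchored receptor that holds urokinase at the cell surface and also signals through integrins. Serpine2, protease nexin-1, is a secreted inhibitor of thrombin and of both activators. In fibroblasts this system is known for pericellular proteolysis during migration and wound repair, and serum and growth factors are known to induce parts of it.

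The arrays held Med23 knockout (KO) embryonic fibroblasts (MEFs) that had been given serum for 0, 30 or 90 min, and wild-type (WT) MEFs at the same times. The MEFs had been taken from 9.5-day embryos of either genotype and had immortalised on their own in culture. The other arrays held 10T1/2 cells, an embryo-derived mouse line, with MAL overexpression together with Med23 knockdown, with MAL overexpression alone, with Med23 knockdown alone, and a control. Med23 is a subunit of the Mediator complex and MAL a coactivator of the serum response factor Srf. Each of the 10 conditions had 1 array, so no condition had a replicate. The labels do not say how many lines of a genotype were used or what agents gave the overexpression and the knockdown. Genotype and the history of the immortalised cells cannot be told apart. An array of whole cultures does not tell fewer expressing cells from less RNA per cell.

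Values are the deposited log2 expression values, on which 1 unit is a doubling. The medians of all probe sets lay between 3.86 and 3.93 on the MEF arrays and between 3.64 and 3.70 on the 10T1/2 arrays, and a level below its array's median was taken as not shown to be above background. Med23 read 3.30, 3.30 and 2.91 in KO MEFs at 0, 30 and 90 min of serum, against 7.14, 7.39 and 6.90 in WT MEFs. In 10T1/2 cells it read 3.94 with both treatments, 5.67 with MAL, 4.24 with the knockdown and 5.45 in the control. Mrtfa, the gene of MAL, read 8.44 with both treatments, 8.33 with MAL, 8.54 with the knockdown and 8.65 in the control, so the 2 arrays labelled as overexpressing it stood no higher than the others. Whether its probe set detects the introduced RNA is unknown, and the MAL comparisons rest on the labels alone. Srf rose with serum in both genotypes, to 9.94 and 10.38 at 30 and 90 min in KO MEFs and to 9.58 and 9.57 in WT MEFs, against 7.25 and 6.59 in KO and WT MEFs at 0 min. Fibroblast markers were above the array median for 9 of 11 genes on every MEF array and for 10 or 11 on the 10T1/2 arrays. Lum and Thy1 were the ones below it in MEFs.

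The sequence before the start of Plaur is shown, since of the 2 members tested in MEFs Plaur was the one that responded to serum. It comes from the RefSeq promoter table for GRCm38.p6, plus strand, chr7:24462233-24462482, and holds the 250 bases before the annotated start of the gene. That table held no entry for Plau or Plat, so no other member with values could be set beside it. Capitals mark a match to the AP-1 motif TGANTCA, which reads the same on both strands.
Plaur: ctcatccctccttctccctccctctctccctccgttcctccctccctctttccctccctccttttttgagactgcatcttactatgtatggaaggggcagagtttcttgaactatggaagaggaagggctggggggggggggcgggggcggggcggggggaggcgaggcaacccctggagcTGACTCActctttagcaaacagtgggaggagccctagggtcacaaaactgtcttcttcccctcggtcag
The match begins 69 bases before the start. AP-1 is the dimer of Fos and Jun family proteins, and the promoter of the human gene is known to be bound by it. Of 32851 mouse promoter windows of the same length, 6.75% held TGANTCA. The GC box letters GGGCGG, searched on both strands, had 3 matches in 2 stretches, since a pair overlaps, and 32.7% of the windows held them. The CArG box bound by Srf, searched on both strands, had no match in these 250 bases, and 1.47% of the windows held one. Such letters do not show that a factor is bound.

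Plaur climbed steeply with serum in both genotypes. In KO MEFs it read 4.94 at 0, 6.49 at 30 and 8.78 at 90 min. In WT MEFs it read 5.55 at 0, 6.77 at 30 and 8.99 at 90 min. Each later array stood above every earlier one whatever the genotype, and how many of all genes did so is not given here. Without serum, 62.4% of the probe sets of the KO array and 67.4% of those of the WT array read at or below Plaur, and at 90 min 91.6% and 92.7%.

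At 90 min Plaur was 12.5-fold higher than at 0 min (limma coefficient 3.64, SE 0.17, n = 2 pairs of arrays, adjusted p = 0.00196). This coefficient ranked 17 from the top among 11933 genes tested. Of the 2 members tested in MEFs, Plaur passed and Plat did not, where 13.5% of all genes passed, 544 of them higher and 1068 lower. Without the 30 min arrays 18 genes passed in place of 1612, and Plaur was among them. From 30 to 90 min Plaur was 4.77-fold higher (2.26, SE 0.17, n = 2 pairs, adjusted p = 0.0101), rank 11 from the top, and again 1 of 2 members passed, against 9.91% of all genes. Without the arrays of the time not compared, the calls of Plaur held with adjusted p = 0.0354 and 0.0443. A fit without genotype as a factor gave adjusted p = 0.213 and 0.373, and in that fit limma called 0 genes.

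The 30 min step of Plaur was 2.61-fold (1.38, SE 0.17, 95% interval 0.97 to 1.80, n = 2 pairs) and missed the threshold (adjusted p = 0.0595, unadjusted p = 0.000155). At this time 0 of 2 members passed, and 0.251% of all genes, 28 higher and 2 lower. Plaur ranked 101 from the top. It passed with an intensity trend in the variance (adjusted p = 0.0381) and in the fit over all 10 arrays (adjusted p = 0.0289), and the range over 9 alternatives was 0.0289 to 1. The 3 serum comparisons share arrays and are not independent of each other.

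**Figure D1:**
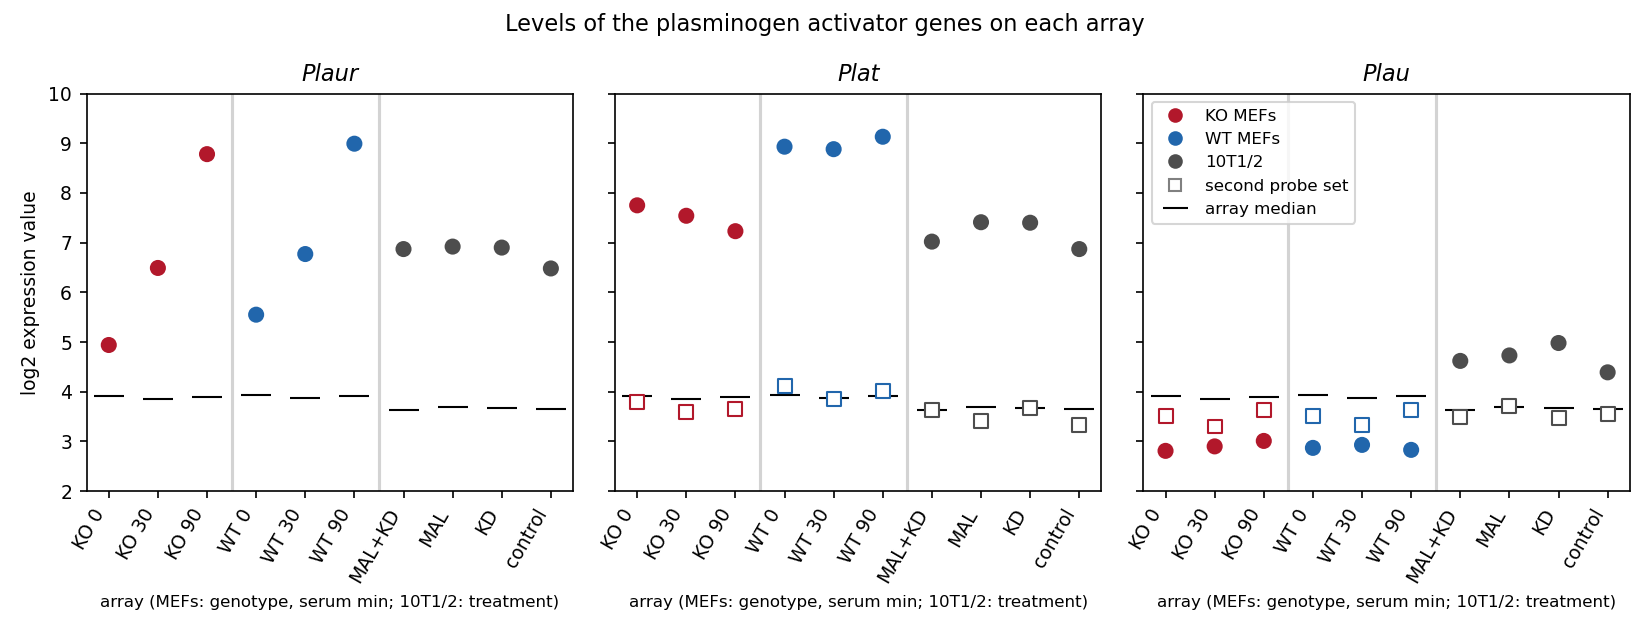
Log2 expression value of Plaur, Plat and Plau on each of the 10 arrays, with KO MEFs in red, WT MEFs in blue and 10T1/2 cells in grey. Filled circles are the probe set used in the fits, open squares the second probe set and short bars the array medians. Plaur climbs with serum time in both genotypes, Plat stands lower in KO than in WT MEFs, and Plau lies below the array medians in MEFs.

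The genotypes were close for Plaur. KO minus WT was -0.61 at 0, -0.28 at 30 and -0.21 at 90 min, so KO read lower at all 3 times. The coefficient was -0.37 (SE 0.14, 95% interval -0.70 to -0.03, n = 3 pairs) and did not pass (adjusted p = 0.078, range over 11 alternatives 0.0579 to 0.855). The serum response itself was 1.55 in KO and 1.22 in WT MEFs at 30 min, and 3.84 in KO and 3.44 in WT MEFs at 90 min. KO minus WT in that response was 0.33 at 30 min and 0.40 at 90 min, where the median size over all tested genes was 0.20 and 0.29. With 1 array a condition this difference has no test.

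In 10T1/2 cells Plaur read 6.87 with both treatments, 6.92 with MAL, 6.90 with the knockdown and 6.48 in the control. The 3 treated arrays lay within 0.05 of each other, above the control. The coefficients were 0.20 for the arrays labelled MAL (SE 0.21, 95% interval -0.34 to 0.75, n = 2 pairs, adjusted p = 0.574) and 0.18 for the knockdown (SE 0.21, -0.36 to 0.73, adjusted p = 0.569). The combined treatment was 0.47 lower than the sum of the single treatments (-0.47, no test). In the order over all arrays, Plaur ran from KO 0 min and WT 0 min through the 10T1/2 control, KO 30 min and WT 30 min, then the treated 10T1/2 arrays, to KO 90 min and WT 90 min. The residual SD of Plaur, as moderated by limma across all genes, was 0.17 in the MEF fit and 0.21 in the 10T1/2 fit. The 10T1/2 control and KO 30 min were closer than that, as were WT 30 min and the 3 treated 10T1/2 arrays. The sources used here do not say whether MEF and 10T1/2 arrays were normalized jointly, so levels across lines are set side by side only.

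Plat behaved otherwise, with no call for serum and a clear gap between genotypes. It read 7.75, 7.54 and 7.23 in KO MEFs at 0, 30 and 90 min of serum, against 8.93, 8.88 and 9.13 in WT MEFs, by its brighter probe set. Every KO array lay more than 1 unit below every WT array. How many of all genes separate in this way is not given here. The means were 7.51 ± 0.26 in KO and 8.98 ± 0.13 in WT MEFs (SD, n = 3 arrays of different serum time).

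Plat was 2.78-fold lower in KO MEFs (limma coefficient -1.47, SE 0.17, n = 3 pairs, lower in 3 of 3, adjusted p = 0.00123). It ranked 498 from the bottom of 11933 genes. With it 1 of 2 members passed, in a comparison where 42.1% of all genes did, 2535 higher and 2483 lower, so a call alone sets Plat little apart. The call held without the arrays of any 1 time, with adjusted p = 0.0078, 0.0211 and 0.00646 without 0, 30 and 90 min. KO minus WT was -1.18 at 0, -1.34 at 30 and -1.90 at 90 min. The serum coefficients of Plat were -0.13 at 30 min (SE 0.21, 95% interval -0.64 to 0.38, adjusted p = 0.941) and -0.16 at 90 min (SE 0.21, -0.67 to 0.35, adjusted p = 0.642). At 90 min the KO array was 0.52 below its 0 min array (-0.52) and the WT array 0.20 above. The difference in response was -0.72, with no test. Its median size over all tested genes was 0.29, and 6.44% of them had a difference of at least 1.

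The second Plat probe set was dim. It read 3.79, 3.59 and 3.65 in KO MEFs, all below the array medians, against 4.12, 3.86 and 4.01 in WT MEFs, where 2 of 3 were above. Its coefficient was -0.32 (SE 0.13) and did not pass when every probe set was tested on its own (adjusted p = 0.0925). With the mean of the 2 probe sets Plat stood at -0.90 and passed. Markers of cell types also differed between the genotypes, in both directions. Of 9 tested fibroblast markers, 5 were called lower in KO MEFs and 1 higher. Dcn, decorin, read 4.53, 4.26 and 4.73 in KO MEFs at the 3 times, against 13.71, 13.60 and 13.62 in WT MEFs, and Col1a2, a collagen I chain, stood 3.89 higher in KO (SE 0.15, adjusted p = 1.7e-05). Summed, the fibroblast markers gave 15.62 to 15.68 in KO and 16.05 to 16.17 in WT MEFs. Of 5 named neural markers, 2 were above the array median on each KO array and 3 on each WT array, with a summed log2 level from 6.73 to 6.98 in KO and from 8.62 to 9.73 in WT MEFs. Sox2, a neural progenitor factor, led this gap, with 2.61, 2.99 and 2.87 in KO and 8.33, 7.61 and 9.11 in WT MEFs. Of 7 macrophage markers, 2 were above it on KO and 3 on WT arrays, with summed levels from 7.07 to 7.21 in KO and from 8.50 to 9.46 in WT MEFs. Of the 3 tested macrophage markers, Cd14 and Cd68 were called lower in KO MEFs and Csf1r was not called. Cd14 read 6.25, 6.13 and 6.21 in KO and 9.28, 9.22 and 8.13 in WT MEFs, while Ptprc, Adgre1 and Tyrobp were below the median on every array. Of 6 endothelial markers, 1 or 2 were above it on KO and 1 on WT arrays, with summed levels from 6.27 to 6.51 in KO and from 5.86 to 5.92 in WT MEFs, and Emcn was the 1 called, higher in KO (2.28, SE 0.12, adjusted p = 5.65e-05). Of 5 epithelial markers, 1 was above the median on every MEF array. The part of these markers in the Plat result was not tested.

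In 10T1/2 cells Plat read 7.02 with both treatments, 7.41 with MAL, 7.40 with the knockdown and 6.87 in the control. Either treatment alone stood above the control, by 0.54 and 0.53, and both together by 0.15. The coefficients were 0.08 for MAL (SE 0.28, 95% interval -0.64 to 0.80, n = 2 pairs, adjusted p = 0.885) and 0.07 for the knockdown (SE 0.28, -0.65 to 0.79, adjusted p = 0.875). The shortfall from the sum was -0.92, with no test. The median size over all tested genes was 0.31, and 7.18% of them deviated by at least 1 in either direction. Of the 10T1/2 arrays the control was the lowest for Plaur, Plat and Plau alike, by the probe sets of the fits. Each deviation from the sum contains this 1 array, so those of the members are not independent of each other. The 10T1/2 values of Plat lay from 6.87 to 7.41, a range that overlaps KO MEFs and lies below all WT MEFs.

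For Plat, the difference between KO and WT MEFs was set against that between knockdown and control arrays of 10T1/2 cells. In 1 fit over all 10 arrays the KO coefficient was -1.47 (SE 0.21) and the knockdown coefficient 0.07 (SE 0.26), the mean of 0.53 without MAL and -0.39 with it. Their difference was -1.54 (SE 0.34, 95% interval -2.32 to -0.76, adjusted p = 0.0119), and 1 of 3 members passed, against 29.3% of all genes. The call rested on single 10T1/2 arrays: it was lost without the knockdown array (-1.08, adjusted p = 0.0675) or without the control (-1.08, adjusted p = 0.0668). Without the array of both treatments, or that of MAL alone, the difference was -2.00 (adjusted p = 0.0155 and 0.0152). The difference for Plaur was -0.55 (SE 0.24, adjusted p = 0.131). Plau entered this fit only through its 10T1/2 levels and lay below the array medians in MEFs. Its difference of -0.21 (SE 0.26) therefore says nothing of the knockout. Cell line and the kind of Med23 loss differ together in this contrast and cannot be told apart. The part of the remaining Med23 signal was not tested.

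**Figure D2:**
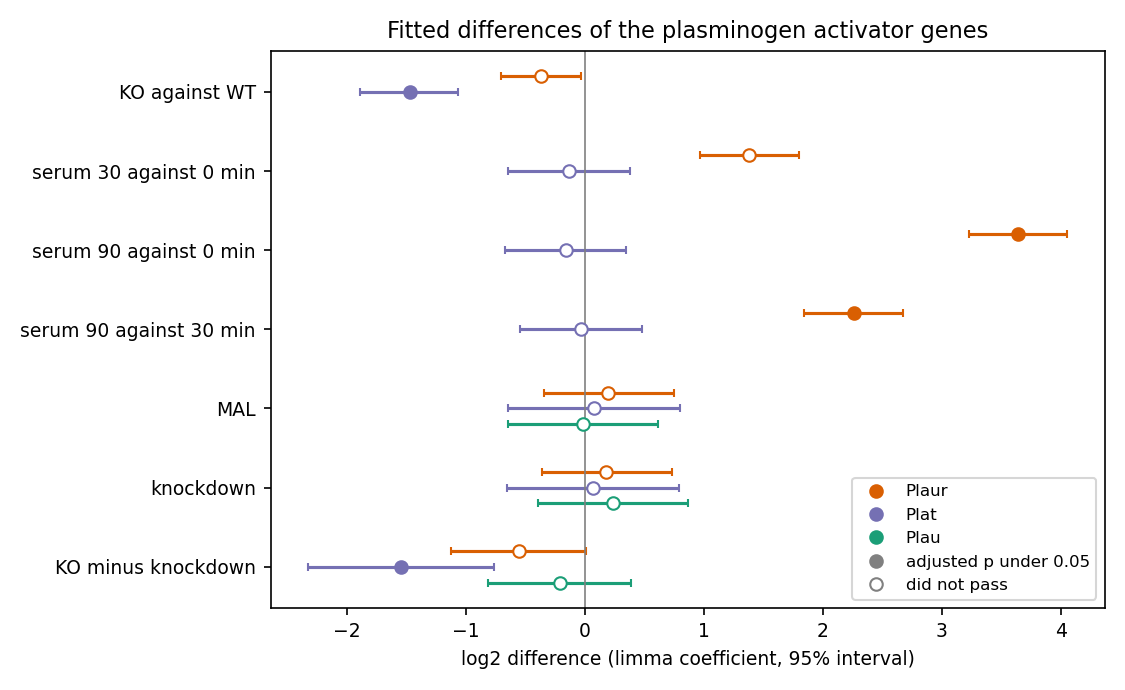
Fitted log2 differences of Plaur, Plat and Plau in 7 comparisons, with 95% intervals from limma. Filled points passed at an adjusted p under 0.05 and open points did not. Plaur passed in both serum comparisons that end at 90 min, Plat passed for KO against WT and for KO minus knockdown, and no member passed for MAL or the knockdown. Plau lay below the array medians in MEFs, so its KO minus knockdown point does not measure the knockout.

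Plau was dim in MEFs. The fits used the probe set with the higher mean over all 10 arrays, which was higher through its 10T1/2 levels. It read 2.81, 2.90 and 3.01 in KO MEFs at 0, 30 and 90 min of serum. In WT MEFs it read 2.87, 2.93 and 2.83. The second probe set read higher in MEFs, with 3.30 to 3.64 in KO and 3.34 to 3.63 in WT cells. Both lay below the array medians on every MEF array, so Plau was in no MEF fit. Neither genotype nor serum moved the probe set of the fits by more than 0.20. At this signal a change of Plau could not be detected in MEFs.

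In 10T1/2 cells the Plau probe set of the fits read 4.62 with both treatments, 4.73 with MAL, 4.98 with the knockdown and 4.39 in the control. It was above the array medians on all 4 arrays. The mean was 4.68 ± 0.25 (SD, n = 4 arrays of different treatment). In MEFs the means were 2.91 ± 0.10 in KO and 2.88 ± 0.05 in WT cells (SD, n = 3 arrays of different serum time). The coefficients were -0.01 for MAL (SE 0.24, 95% interval -0.64 to 0.62, n = 2 pairs, adjusted p = 0.985) and 0.24 for the knockdown (SE 0.24, -0.39 to 0.87, adjusted p = 0.52). The combined treatment deviated by -0.70 from the sum of the single treatments, with no test. The median size of this deviation over all tested genes was 0.31. For MAL 0 of 3 members passed, against 0.0643% of all genes. For the knockdown limma called 0 of 3 members and 0% of all 12440 genes, with 3972 at an unadjusted p under 0.05. These shares of all genes were unstable, since after quantile normalization 2014 genes were called for MAL and 2472 for the knockdown, with 0 members among them in both. The second probe set did not show the step between the lines, with 3.30 to 3.64 in KO MEFs, 3.34 to 3.63 in WT MEFs and 3.47 to 3.72 in 10T1/2 cells, and was above the median on 1 of 10 arrays.

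Other genes of the system were taken from 6 lists, of whose 59 entries 54 had a named probe set. Plasminogen itself, Plg, read from 3.21 to 3.62 in MEFs, below the array medians. Of its surface binding proteins, Itgam was below the medians on every array. Anxa2, a plasminogen-binding annexin, read 12.19, 12.14 and 12.30 in KO MEFs at 0, 30 and 90 min of serum, against 11.82, 11.68 and 11.65 in WT MEFs. It was 1.41-fold higher (0.49, SE 0.13, n = 3 pairs, adjusted p = 0.0239), with adjusted p = 0.0987 without 0 min and 0.121 without 30 min, and was the 1 of 3 tested genes of its list that passed, where 42.1% of all genes did. Of the inhibitors only 2 were tested in MEFs. Serpini1, neuroserpin, an inhibitor of Plat, was called lower (-0.57, SE 0.14, adjusted p = 0.018), but its KO levels of 3.20, 3.67 and 3.23 lay below the array medians. The call was lost when such levels were raised to the medians (adjusted p = 0.497), and also without 0, 30 or 90 min (adjusted p = 0.144, 0.0653 and 0.051). Serpinb2, Serpina5, A2m and Serping1 were below the threshold in MEFs.

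The partners and clearance receptors of Plaur moved in both directions with the knockout, 4 of 12 higher and 4 lower with a median of -0.08, where 42.1% of all genes passed and the median of all genes was -0.02. Vldlr, an endocytic receptor of the LDL receptor family, read 4.01, 3.60 and 3.47 in KO MEFs, against 8.42, 8.51 and 8.82 in WT MEFs. It was at least 25.3-fold lower with levels below the medians raised to them (limma coefficient as measured -4.89, SE 0.20, n = 3 pairs, adjusted p = 2e-05). Lrp2, megalin, an endocytic receptor of the same family, read 5.56, 5.89 and 6.82 in KO MEFs, against 2.85, 2.93 and 3.08 in WT MEFs, and was at least 4.53-fold higher (as measured 3.14, SE 0.21, adjusted p = 0.000145). The substrates held 1 of 5 tested higher and 3 lower, with a median of -0.85, beside the same 42.1%. Lama5, a laminin chain, was 11.7-fold lower in KO MEFs (-3.55, SE 0.13, adjusted p = 1.37e-05), and Bdnf, whose precursor plasmin can cut, was 2.63-fold higher (1.39, SE 0.14, adjusted p = 0.000738).

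Among genes of thrombin and the contact proteases, 1 of 5 tested was higher in KO MEFs and 1 lower, with a median of 0.04, where 42.1% of all genes passed. Tfpi, the inhibitor of tissue factor, read 9.46, 9.21 and 9.27 in KO MEFs, against 5.59, 5.56 and 5.35 in WT MEFs, and was 14.1-fold higher (3.81, SE 0.13, n = 3 pairs, adjusted p = 1.07e-05). F2r, a thrombin receptor, was 1.83-fold lower (-0.87, SE 0.16, adjusted p = 0.00725), with adjusted p = 0.0647 without 0 min and 0.075 without 30 min. The Ets and AP-1 factors known at Plau enhancers held 1 of 10 higher and 6 lower, with a median of -0.76, beside that 42.1%. Ets2 read 6.63, 6.41 and 7.59 in KO MEFs, against 9.29, 9.79 and 10.72 in WT MEFs, so that it climbed with serum in both and stayed lower in KO. It was 8.32-fold lower (-3.06, SE 0.17, adjusted p = 6.57e-05), and Fos was 2.14-fold higher (1.10, SE 0.25, adjusted p = 0.015), with adjusted p = 0.069 without 30 min.

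**Figure D3:**
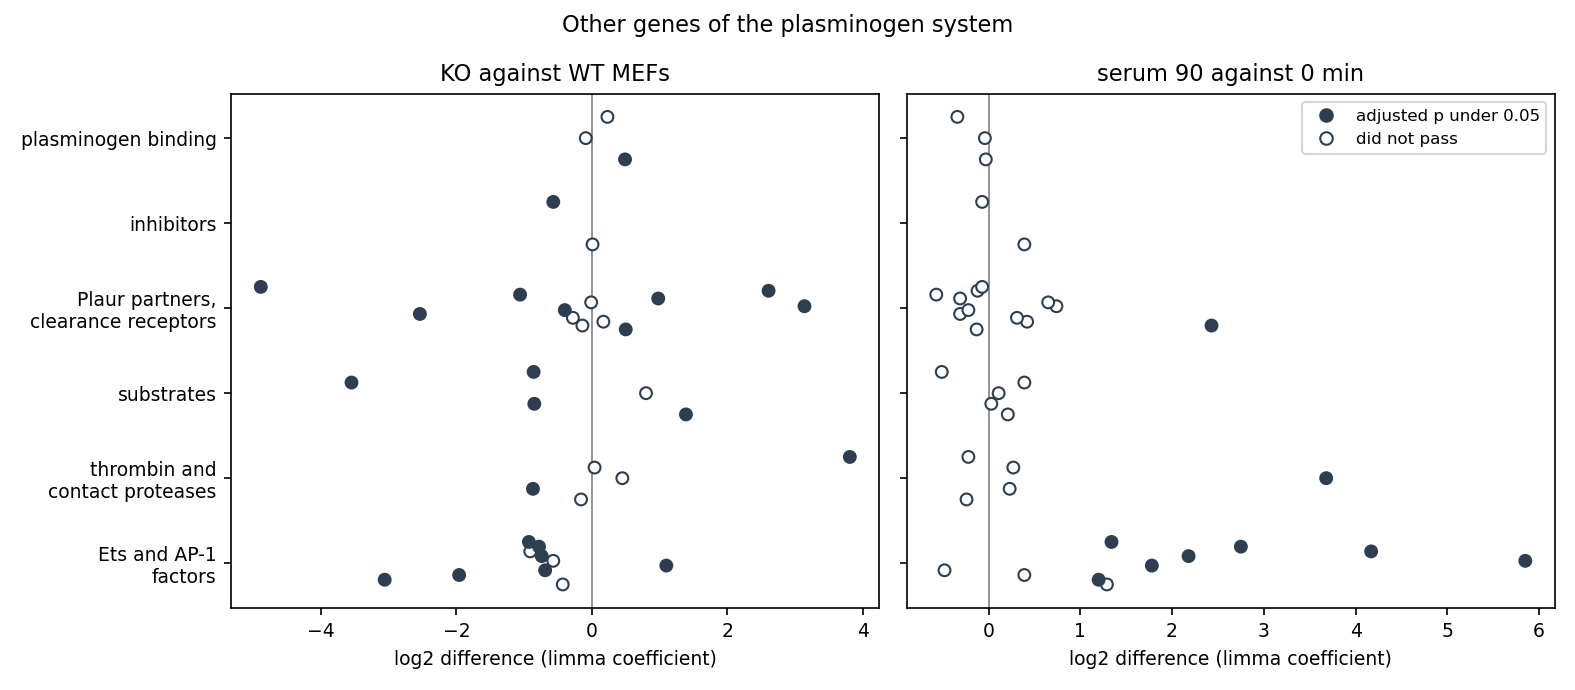
Log2 differences of the tested genes of 6 lists of the plasminogen system, for KO against WT MEFs on the left and for 90 against 0 min of serum on the right. Each point is a gene, filled where the adjusted p was under 0.05. The knockout differences spread to both sides, and the Ets and AP-1 factors hold 7 of the 9 genes that passed at 90 min.

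Serum left most of these genes without a call. At 90 min 7 of 10 Ets and AP-1 factors had risen and 0 fallen, with a median of 1.56 where 13.5% of all genes passed and their median was -0.11. At 30 min 3 of 10 had risen, where 0.251% of all genes passed. Fosl1, an AP-1 subunit, read 3.62, 8.03 and 10.75 in KO MEFs at 0, 30 and 90 min of serum, against 5.33, 8.89 and 9.90 in WT MEFs. It was at least 52.2-fold higher at 90 min (as measured 5.85, SE 0.54, n = 2 pairs, adjusted p = 0.00522). Fos peaked earlier, with 6.63, 13.03 and 9.02 in KO MEFs and 5.99, 12.24 and 7.16 in WT MEFs, and rose 80.2-fold by 30 min (6.32, SE 0.30, adjusted p = 0.00239). It fell by 4.54 on the log2 scale between 30 and 90 min (SE 0.30, adjusted p = 0.0101). Plaur was highest on the 90 min array of each genotype. Of these factors Fosl1, Ets1, Ets2 and Jund were so too, and Fos was not. The share of all genes with this trait is not given here. The part of any of these factors in the Plaur response was not tested.

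Apart from these factors, F3 and Itga5 passed at 90 min. F3, tissue factor, which starts coagulation, read 7.99, 11.08 and 12.34 in KO MEFs at 0, 30 and 90 min of serum, against 8.05, 10.95 and 11.07 in WT MEFs. It had risen 7.97-fold by 30 min (2.99, SE 0.32, n = 2 pairs, adjusted p = 0.0396) and 12.9-fold by 90 min (3.68, SE 0.32, adjusted p = 0.00502). Itga5, the integrin chain of the fibronectin receptor and a partner of Plaur, was 5.39-fold higher at 90 min (2.43, SE 0.25, adjusted p = 0.00611) and 2.52-fold higher at 90 than at 30 min (1.34, SE 0.25, adjusted p = 0.0303). Ets2 was 2.08-fold higher at 90 than at 30 min (1.06, SE 0.21, adjusted p = 0.034). Without the 30 min arrays the 90 min calls of Fosl1, F3 and Itga5 were lost (adjusted p = 0.0509, 0.0509 and 0.0526), and without the 0 min arrays those of Itga5 and Ets2 between 30 and 90 min (adjusted p = 0.0655 and 0.0704). With dim levels raised to the array median, the 30 min calls of F3 and Fos were lost (adjusted p = 0.339 and 0.155) although their differences stayed at 2.99 and 6.32, as were those of Itga5 and Ets2 between 30 and 90 min (adjusted p = 0.0758 and 0.0736). In 10T1/2 cells limma called 0 genes of these lists for MAL and 0 for the knockdown. Of all genes 0.0643% and 0% passed there, so these counts do not show that the lists lacked a response.

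**Figure D4:**
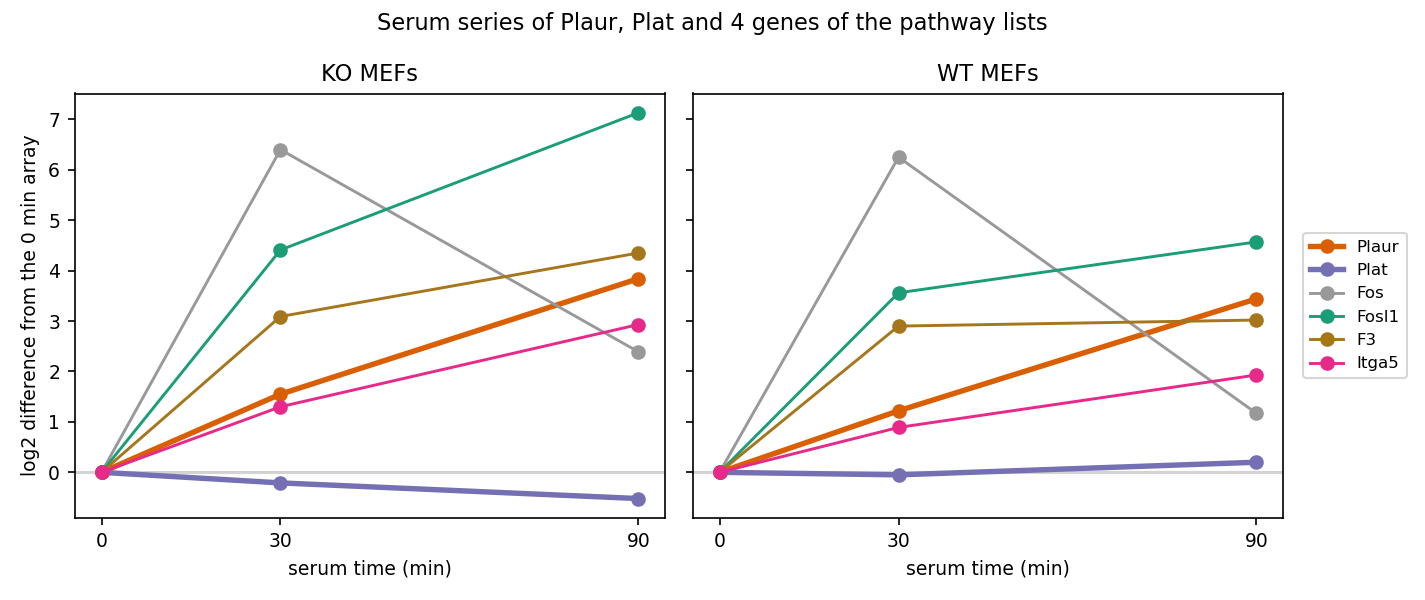
Log2 difference from the 0 min array against serum time in min, for KO MEFs on the left and WT MEFs on the right, with 1 array a point. Plaur ends 3.84 above its 0 min level in KO and 3.44 above in WT MEFs, while Plat stays within 0.52 of its own and Fos peaks at 30 min.

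The genes most like each member over the 10 arrays were found by Pearson r among 10789 other genes, as a description only, since the arrays share cell lines and conditions. For Plaur these were Stk40, a kinase-like protein gene (r = 0.918), Uap1, an enzyme of UDP-N-acetylglucosamine synthesis (r = 0.905), and Wdr1, a cofactor of actin disassembly (r = 0.887). Uap1 read 7.74, 8.51 and 9.78 in KO MEFs at 0, 30 and 90 min of serum, against 8.13, 8.80 and 10.77 in WT MEFs. For Plat they were Gdpd1 (r = 0.968), the autophagy gene Gabarapl2 (r = 0.968) and the retinol dehydrogenase gene Rdh10 (r = 0.967). Rdh10 read 7.35, 7.28 and 7.31 in KO MEFs, against 10.40, 10.38 and 10.09 in WT MEFs. For Plau they were Cinp (r = 0.99), the DNA polymerase epsilon subunit gene Pole2 (r = 0.988) and Mettl2 (r = 0.988), values that rest on the step between MEFs and 10T1/2 cells.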

How the data were processed

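Total RNA of 10 cultures was labelled with biotin and hybridised to Affymetrix arrays, per the labels' protocols. The deposited values are on a log2 scale, with 1 value for each array and probe set. RMA and MAS5 are named per the submitters' processing notes, without roles, so which of them made the values is unknown. The log2 scale was read from the deposited values.

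Symbols came from the platform annotation and were updated through Entrez identifiers to the RefSeq table of GRCm38.p6. Of 45101 probe sets, 34945 had 1 symbol, 932 several and 9160 none, and 64 were controls. A gene was represented by its probe set of highest mean over the 10 arrays. A gene was tested when its highest value in a fit exceeded the median of all probe sets there (3.90 in MEFs, 3.67 in 10T1/2 cells, 3.81 over all arrays). limma 3.58.1 in R 4.3.3 fitted genotype and serum time additively in MEFs (2 residual degrees of freedom) and MAL and knockdown additively in 10T1/2 cells (1 residual degree of freedom). A fit over all 10 arrays (3 residual degrees of freedom) gave the knockout minus knockdown contrast. p-values are two-sided and adjusted by Benjamini-Hochberg over all genes tested, with a threshold of 0.05. They rest on the spread left by the additive fits, not on replicates of a condition. The number of arrays limits the precision.

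Genes, lists and tests were chosen with earlier results of these data known. From the lists, the called gene with the largest difference in each direction was named, with Med23, Mrtfa and Srf and with the 3 most correlated genes per member. Genes listed as below the threshold, Plg, the marker genes and Serpine2 were named outside that rule.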

Additional observations from a re-analysis of the deposited data

Results flagged for a closer look

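The knockout coefficient of Plat in MEFs and its knockdown coefficient in 10T1/2 cells differed by -1.54 on the log2 scale (limma contrast over all 10 arrays, SE 0.34, adjusted p = 0.0119). Plat was lower in KO than in WT MEFs at 3 of 3 serum times. With the knockdown it stood at 7.40, against 6.87 in the control, and with both treatments at 7.02, against 7.41 with MAL alone. Over 13 alternatives the difference ran from -2.00 to -1.07 with adjusted p from 0.00936 to 0.0675, and the call was lost without the knockdown array (adjusted p = 0.0675) and without the control array (adjusted p = 0.0668). The dim second probe set gave -0.60 (adjusted p = 0.0691).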

How the results depend on the processing

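The call of Plat for KO against WT held under all 11 alternatives, and that for KO minus knockdown under 11 of 13, with 0 to 1 members called without 1 array or serum time. Plaur at 90 min, against 0 or 30 min, held under 8 of 9 alternatives, with 0 members called in the fit without genotype. At 30 min 1 member, Plaur, was called with an intensity trend and with all 10 arrays, against 0 as reported. No member was called for MAL or the knockdown under 11 alternatives each. Counts over all genes moved more, and the cause was not tested. For KO against WT, 5018 genes became 8380 of 22141 probe sets tested singly, 2857 without serum time as a factor, and 2398 to 4891 without 1 serum time. For 30 min, 30 became 13 with probe sets averaged, 46 with probe sets singly, 2 with dim levels raised to the median, 59 with a trend, 0 without genotype, 58 with all 10 arrays, and 10 without the 90 min arrays. For 90 against 0 min, 1612 became 819 with dim levels raised, 0 without genotype and 18 without the 30 min arrays. For 90 against 30 min, 1183 became 768 with probe sets averaged, 119 with dim levels raised, 0 without genotype and 139 without the 0 min arrays. For MAL, 8 became 2014 after quantile normalization, 587 with probe sets averaged, 542 with a trend, 2236 with all 10 arrays, and 0 with no filter, with probe sets singly or with dim levels raised. For the knockdown, 0 became 2472, 340, 599 and 2658 under the first 4 of these. For KO minus knockdown, 3814 became 6022 with probe sets singly, and 2253 to 3487 without 1 serum time or 1 10T1/2 array. With probe sets averaged, the untested Plat values moved to -0.37 for the 90 min response and -0.51 for the combined treatment. That of Plau for the combined treatment moved from -0.70 to -0.42. Leaving out 1 10T1/2 array leaves the fit of these arrays no residual, so it was done in the fit over all 10 arrays, an alternative chosen after seeing the data, where the lone arrays are assumed to vary like the MEF arrays. It gave 480 to 1253 genes for MAL and 176 to 1729 for the knockdown. The labels carry no replicate numbers, so no replicate block was fitted, and serum time paired the KO and WT arrays. Signal over background limits Plau in MEFs and the second Plat probe set.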
